A study of Mus musculus with 16 samples.

Results

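The genes described here are 47 genes of DNA replication and DNA repair, taken by name from a list, out of 21887 protein-coding genes on mouse chromosomes 1 to 19, X and Y. The list covers the machinery that marks and opens replication origins, the polymerases, clamp and clamp loader, the single-strand binding protein RPA, and genes for recombination, break sensing, checkpoint signalling, mismatch repair and end joining. Open chromatin at these genes was measured by ATAC-seq, in which a transposase cuts and tags accessible DNA. The measure used throughout is the end peak, a deposited peak within 1000 bp of either end of the gene model.

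The cells were mouse embryonic stem cells (ESCs) with a GFP knock-in at Rx, a gene of the early eye field, and embryoid bodies made from them. All ESCs were kept in 2i+LIF, a medium that holds them undifferentiated. In 3 ESC groups both Wdr5 and p53 were deleted and a plasmid was stably introduced: WDR5 with the changes S91K and Y191F (called S91K-Y191F), wild-type WDR5 (called WDR5WT), or the plasmid backbone alone (called backbone). These cells therefore all lack p53 as well as the mouse Wdr5 gene, and the series names the introduced WDR5 as human. The other ESC groups were 2 p53 knockout clones, H9 and C9, each a single clone, and the parental Rx:GFP line, which carries neither deletion. The embryoid bodies were grown by the SFEBq method with 5% KSR, a serum replacement, and with 2% matrigel added on day 1. They were Wdr5 and p53 double knockout (DKO), whose titles name no plasmid, and parental. The parental embryoid bodies are labelled EB4 and the labels of the double knockout embryoid bodies give no day. Each of the 8 groups had 2 libraries, and the labels do not say whether these came from separate cultures.

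Before each S phase the origin recognition complex binds origins, and Cdc6 and Cdt1 help it load the MCM helicase. Cdc45 and the GINS proteins then turn the MCM ring into a working helicase, the polymerases copy both strands, and the sliding clamp Pcna, opened and closed by the RFC clamp loader, holds them on the DNA. Many of these genes are switched on together before S phase by E2F transcription factors, which bind near their starts. Pluripotent ESCs have short gap phases and express this machinery strongly. WDR5 is a subunit of the MLL/COMPASS complexes that methylate histone H3 at active promoters, and p53 is the transcription factor that answers DNA damage.

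Sequence around the starts was searched for words of the E2F type. RefSeq promoter sequences on the GRCm38.p6 build (the assembly behind mm10), from 250 bases before to 50 bases after an annotated start, were at hand for 39 of the 47 genes, as 46 promoters; Mcm4, Gins1, Gins2, Gins4, Rfc2, Pole, Rad50 and Nbn were not matched. An E2F-type word (TTTCCCGC, TTTCGCGC, TTTGCCGC or TTTGGCGC, on either strand) occurred in 17 of the 46 promoters, or 37%, each from a different gene. Among all 21263 protein-coding promoters the share was 2.85%. The 6 promoters below were picked by hand as examples and over-represent the word. Of them, 5 hold at least 1 E2F-type word, against 17 of the 39 genes. The other is that of Chek1, one of the few genes with a peak in a backbone library. It held none of the searched words shown in capitals. The Chek1 sequence ends in gcgggaa, the word GCGGGAAA short of its last letter, at the edge of the searched window. Whether the word is complete beyond that edge was not tested. Capitals mark E2F-type words and the CCAAT box (CCAAT or ATTGG), lower case the rest; the annotated start follows the first 250 bases.
Mcm5 (chr8:75109259-75109558, plus strand): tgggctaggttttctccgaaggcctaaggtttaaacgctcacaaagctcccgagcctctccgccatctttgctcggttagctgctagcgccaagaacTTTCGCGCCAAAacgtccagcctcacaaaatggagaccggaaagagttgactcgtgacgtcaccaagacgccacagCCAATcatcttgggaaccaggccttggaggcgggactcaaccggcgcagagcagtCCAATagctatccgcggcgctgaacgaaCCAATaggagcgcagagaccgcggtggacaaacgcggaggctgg
Mcm6 (chr1:128359656-128359955, minus strand): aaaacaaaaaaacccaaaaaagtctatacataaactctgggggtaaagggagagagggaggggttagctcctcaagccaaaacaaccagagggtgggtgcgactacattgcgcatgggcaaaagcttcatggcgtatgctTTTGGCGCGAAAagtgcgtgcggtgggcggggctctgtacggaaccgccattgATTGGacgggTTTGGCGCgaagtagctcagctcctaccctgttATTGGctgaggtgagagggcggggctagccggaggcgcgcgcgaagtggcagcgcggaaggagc
Rfc3 (chr5:151651159-151651458, minus strand): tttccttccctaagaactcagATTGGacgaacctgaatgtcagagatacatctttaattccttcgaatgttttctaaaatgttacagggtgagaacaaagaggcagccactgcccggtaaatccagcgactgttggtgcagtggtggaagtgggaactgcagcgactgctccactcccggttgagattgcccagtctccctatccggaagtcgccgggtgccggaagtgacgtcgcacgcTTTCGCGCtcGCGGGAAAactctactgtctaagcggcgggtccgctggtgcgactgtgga
Orc1 (chr4:108579204-108579503, plus strand): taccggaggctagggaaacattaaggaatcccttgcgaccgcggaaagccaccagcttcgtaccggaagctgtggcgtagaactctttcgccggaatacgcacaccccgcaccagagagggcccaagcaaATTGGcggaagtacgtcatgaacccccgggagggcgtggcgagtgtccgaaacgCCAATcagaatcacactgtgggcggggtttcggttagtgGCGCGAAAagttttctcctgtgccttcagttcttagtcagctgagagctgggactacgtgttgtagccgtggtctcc
Brca2 (chr5:150522371-150522670, plus strand): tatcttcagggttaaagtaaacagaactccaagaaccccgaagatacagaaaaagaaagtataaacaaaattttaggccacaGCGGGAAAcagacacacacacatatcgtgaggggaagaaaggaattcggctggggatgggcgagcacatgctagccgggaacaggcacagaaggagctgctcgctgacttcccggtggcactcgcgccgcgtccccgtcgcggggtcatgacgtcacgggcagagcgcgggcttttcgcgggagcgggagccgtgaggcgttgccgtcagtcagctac
Chek1 (chr9:36726609-36726908, minus strand): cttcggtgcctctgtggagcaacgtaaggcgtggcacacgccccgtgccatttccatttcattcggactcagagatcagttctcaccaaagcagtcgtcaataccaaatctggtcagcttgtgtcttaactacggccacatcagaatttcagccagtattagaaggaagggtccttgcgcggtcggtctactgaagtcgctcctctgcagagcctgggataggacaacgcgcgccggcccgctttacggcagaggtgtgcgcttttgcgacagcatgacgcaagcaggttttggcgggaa
In Mcm5 the words TTTCGCGC and GCGCCAAA overlap and together make 1 run; they begin at -153 and -149, counted in bases from the annotated start. Mcm6 holds an overlapping pair at -110 and -106 and a further word at -47. Rfc3 has matches that begin at -10 and at the start itself.

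The CCAAT box occurred in 63% of the members' promoters and in 38.2% of all promoters. The GC box (GGGCGG, either strand), which Sp1 reads, stood in 65.2% and 46.2%. The CHR element (TTTGAA, either strand), known from genes that peak in G2 and mitosis, was found in 8.7% of the members' promoters and in 16% of all. The members' promoters were also richer in CpG, with a median of 22 CpG per promoter against 13 over all promoters, while GC content was 58.8% against 56.3%. Among promoters within the members' own middle range of CpG counts (16 to 27), 11 of 22 members' promoters (50%) and 4.62% of all 5517 held an E2F-type word. The 17 genes with such a word and the 22 without had a peak at an annotated start in a median of 13 of the 16 lists each. A match of letters is a description of the sequence and not a bound site.

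Each library is 1 deposited peak list, with no read counts, so sequencing depth is unknown. ESC lists held from 1535 to 32709 peaks and embryoid body lists from 75673 to 93646. The S91K-Y191F lists held 5174 and 16257 peaks, the WDR5WT lists 29779 and 32709, the backbone lists 1535 and 2492, the p53 knockout lists 26305 to 31782, and the parental ESC lists 24367 and 5330. Both backbone lists, the first S91K-Y191F list and the second parental ESC list thus stand apart as short. Chromosome 8 gave 28.6% and 23.3% of all backbone peaks, against 6.25% and 11.1% of parental ESC peaks. The share was 16% and 10.4% in S91K-Y191F ESCs, 8.86% and 8.73% in WDR5WT ESCs and 8.96% to 9.78% in p53 knockout ESCs. In embryoid bodies it was 7.56% and 7.53% in double knockout lists and 5.29% and 5.37% in parental lists. A peak at a gene's outer end does not check a deletion inside it. Among ESC lists, Trp53 had an end peak in the second S91K-Y191F, the second WDR5WT, both clone H9 and the first parental list. It also had one in all 4 embryoid body lists. Wdr5 had one in the second WDR5WT list alone among ESC lists and in all 4 embryoid body lists. Of 10 ESC marker genes, 1 and 7 had an end peak in S91K-Y191F ESCs, 8 and 9 in WDR5WT ESCs, 1 and 1 in backbone ESCs, 7 to 8 in p53 knockout ESCs, and 9 and 2 in parental ESCs. In embryoid bodies 9 and 9 had one in double knockout lists and 10 and 10 in parental lists, so these end peaks do not set ESCs apart. Zfp42, a naive pluripotency marker, had one in all 16 lists, Pou5f1 in 4 ESC lists and Esrrb in 0 ESC lists. Of 6 fibroblast markers (for feeder cells), 0 to 3 had an end peak in ESC lists and 4 in each embryoid body list, with Col3a1 and Lum at 0 in all 16. The part of list length in the results below was not tested beyond the equal-length values given with them.

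End peaks were found at most of the 47 genes in every long list. In S91K-Y191F ESCs 21 and 36 of the 47 had one (44.7% and 76.6%), in WDR5WT ESCs 42 and 41 (89.4% and 87.2%), and in backbone ESCs 1 and 4 (2.13% and 8.51%). In p53 knockout ESCs 41 and 42 had one in clone H9 and 40 and 41 in clone C9, and in parental ESCs 39 and 18 (83% and 38.3%). In double knockout embryoid bodies 42 and 43 had one, against 43 and 43 in parental embryoid bodies. The members' share lay above the share of all protein-coding genes in each of the 16 lists. Over all genes that share was 13.1% and 33.8% in S91K-Y191F ESCs, 49.5% and 54.9% in WDR5WT ESCs, 1.25% and 4.91% in backbone ESCs, 43% to 48.8% in p53 knockout ESCs, 40.8% and 12.4% in parental ESCs, and 64.6% to 66.7% in embryoid bodies. In the backbone lists the members' values rest on 1 gene, Gins2, and on 4 genes, too few to read a difference from.

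**Figure D1:**
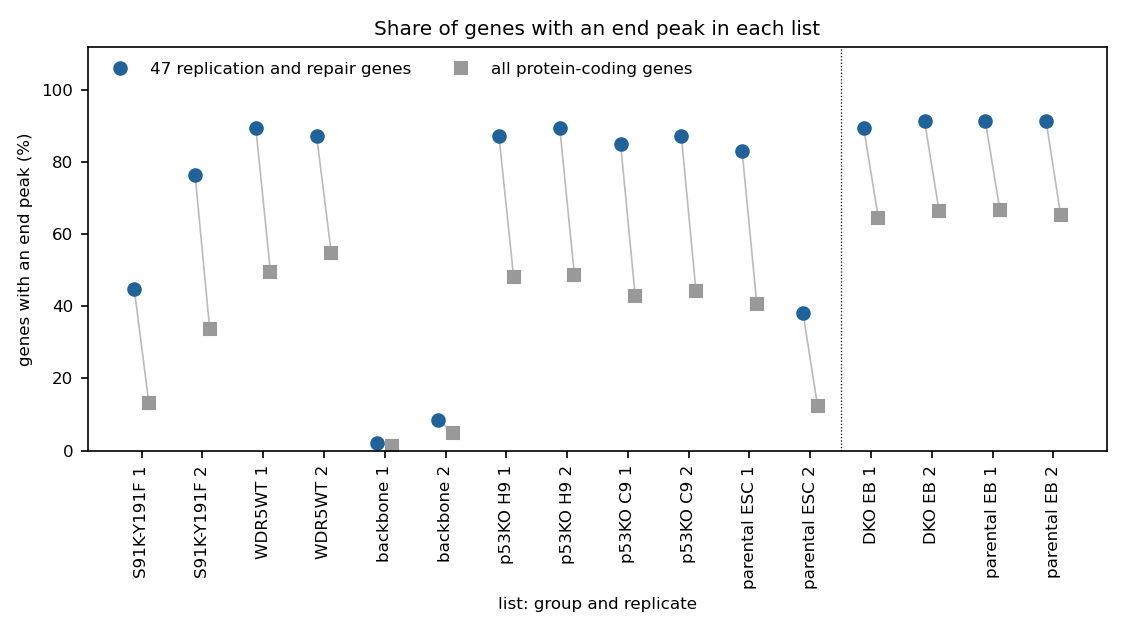
Share of genes with an end peak (vertical axis, percent) in each of the 16 lists (horizontal axis), for the 47 replication and repair genes (circles) and all protein-coding genes (squares). The dotted line parts ESC lists from embryoid body lists, and the lowest members' share is 2.13% in a backbone list and the highest 91.5% in embryoid bodies.

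The gap to all genes, in percentage points, was narrower in each list named next among genes with end peaks in embryoid bodies. Of the 42 members with an end peak in all 4 embryoid body lists, 50% and 85.7% had one in S91K-Y191F ESCs, against 20.2% and 52.8% of the 13398 genes of that kind. In WDR5WT ESCs the shares were 97.6% and 95.2% of members and 77.5% and 85.8% of genes. In backbone ESCs they were 2.38% and 9.52% of members and 1.56% and 7.31% of genes, and in parental ESCs 90.5% and 42.9% of members and 63.3% and 19% of genes. Members' ends also lie closer to other genes: 23 of 47 (48.9%) have the end of another protein-coding gene within 1000 bp, against 24.8% of all genes, so that 1 peak can count for both. Examples are Mcm4 with Prkdc, 44 bp apart, Chek2 with Hscb, 7 bp apart, Msh6 with Fbxo11, 33 bp apart, and Atm with Npat, 61 bp apart. The 24 members without such a neighbour had an end peak in 37.5% and 66.7% of cases in S91K-Y191F ESCs, 83.3% and 79.2% in WDR5WT ESCs, 0% and 8.33% in backbone ESCs, and 75% and 41.7% in parental ESCs. All genes without such a neighbour had one in 10% and 27.6%, 43.4% and 48.3%, 1.1% and 3.61%, and 34.7% and 9.67% of cases in the same lists. In backbone ESCs the 23 members with a neighbour had one in 4.35% and 8.7% of cases, against 1.7% and 8.83% of all such genes, so with and without a neighbour the members lay below all genes in 1 backbone list each.

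The origin recognition complex, which marks where replication can begin, has 6 genes on the list. End peaks were found at 3 and 4 of them in S91K-Y191F ESCs, 4 and 4 in WDR5WT ESCs, 0 and 1 in backbone ESCs, 4 in every p53 knockout list, and 4 and 2 in parental ESCs. Orc2, Orc3, Orc5 and Orc6 made up those counts, while Orc1 and Orc4 had no end peak in any ESC list. For both, the start lies inside the gene model. The annotated Orc1 start, shown above, is on chromosome 4 at 108579454 and the model begins at 108575705, so peaks at the start lie 3153 to 3547 bp from the outer end. Counted at that start, Orc1 had a peak in 13 of 16 lists, all but both backbone lists and the second parental ESC list.

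Orc4 was the member with a peak at an annotated start in all 16 lists, although only 1 of them, the first parental embryoid body list, had a peak at its outer end. Its model spans chromosome 2 from 48902824 to 48952902, on the minus strand. The deposited signal of its start peak was 961 and 2545 in S91K-Y191F ESCs, 3832 and 3857 in WDR5WT ESCs, and 213 and 755 in backbone ESCs. It was 4047 and 4247 in clone H9, 3087 and 3898 in clone C9, and 2529 and 924 in parental ESCs. In both backbone libraries, where nearly all members' ends had no peak, this start therefore had one, the weaker of them near the floor of 200 below which the ESC lists hold no signal. The signal is the authors' own value with unstated scaling, and sizes are set side by side without a test.

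Among the loading factors, Cdt1 had an end peak in both S91K-Y191F lists and Cdc6 in neither, and both genes had one in both WDR5WT lists, in all p53 knockout lists, and in the first parental ESC list. The MCM ring, the helicase itself, had end peaks at 3 and 6 of its 6 genes in S91K-Y191F ESCs, 6 and 6 in WDR5WT ESCs, 0 and 1 in backbone ESCs, 6 in each p53 knockout list, and 6 and 5 in parental ESCs. All 6 MCM genes had one in each embryoid body list. In the short second parental ESC list, Mcm2 to Mcm6 had a peak and Mcm7 did not. Mcm5 was the MCM gene with a peak in a backbone list, the second, from 75109288 to 75109867 on chromosome 8, overlapping the promoter printed above. Its summit lay 55 bp before the start.

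Of the 6 helicase activation genes (Mcm10, Cdc45 and the 4 GINS genes), 4 and 6 had an end peak in S91K-Y191F ESCs, 6 and 6 in WDR5WT ESCs, 1 and 1 in backbone ESCs, 6 in each p53 knockout list, and 6 and 3 in parental ESCs. Gins2, a subunit of the GINS complex, was the member with an end peak in all 16 lists. Its signal was 836 and 2100 in S91K-Y191F ESCs, 2209 and 2909 in WDR5WT ESCs, 506 and 646 in backbone ESCs, 2415 and 2359 in clone H9, 2087 and 2069 in clone C9, and 1793 and 429 in parental ESCs. In embryoid bodies its fold enrichment was 5.31 and 5.82 in double knockout libraries and 5.65 and 5.39 in parental libraries. The peak of the first backbone library runs from 120588986 to 120589554 on chromosome 8. It covers the upper end of the Gins2 model (120581266 to 120589075), 117 bp from an end of Gse1, so it cannot be told apart which of the pair it belongs to.

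Gins2 and Mcm5 are on chromosome 8, as are Gins3, Gins4, Orc6 and Cdt1. These 6 members had end peaks in 6 and 6 cases in S91K-Y191F ESCs, 1 and 2 in backbone ESCs, and 6 and 4 in parental ESCs. The other 41 members had 15 and 30, 0 and 2, and 33 and 14. Over all genes the same lists also had more end peaks on chromosome 8: 31.4% and 54.5% in S91K-Y191F ESCs, 6.42% and 17.7% in backbone ESCs, and 49.3% and 18% in parental ESCs. Off chromosome 8 these were 12.2% and 32.8%, 0.988% and 4.27%, and 40.3% and 12.1%. WDR5WT ESCs had 70.6% and 72.8% on chromosome 8 and 48.4% and 54% off it. In p53 knockout ESCs the shares were 65.3% to 68.6% and 41.9% to 47.9%, and in embryoid bodies 76% to 79.2% and 64% to 66.2%. All 6 members had an end peak in each of these lists. The part of chromosome 8 in these counts was not tested.

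**Figure D2:**
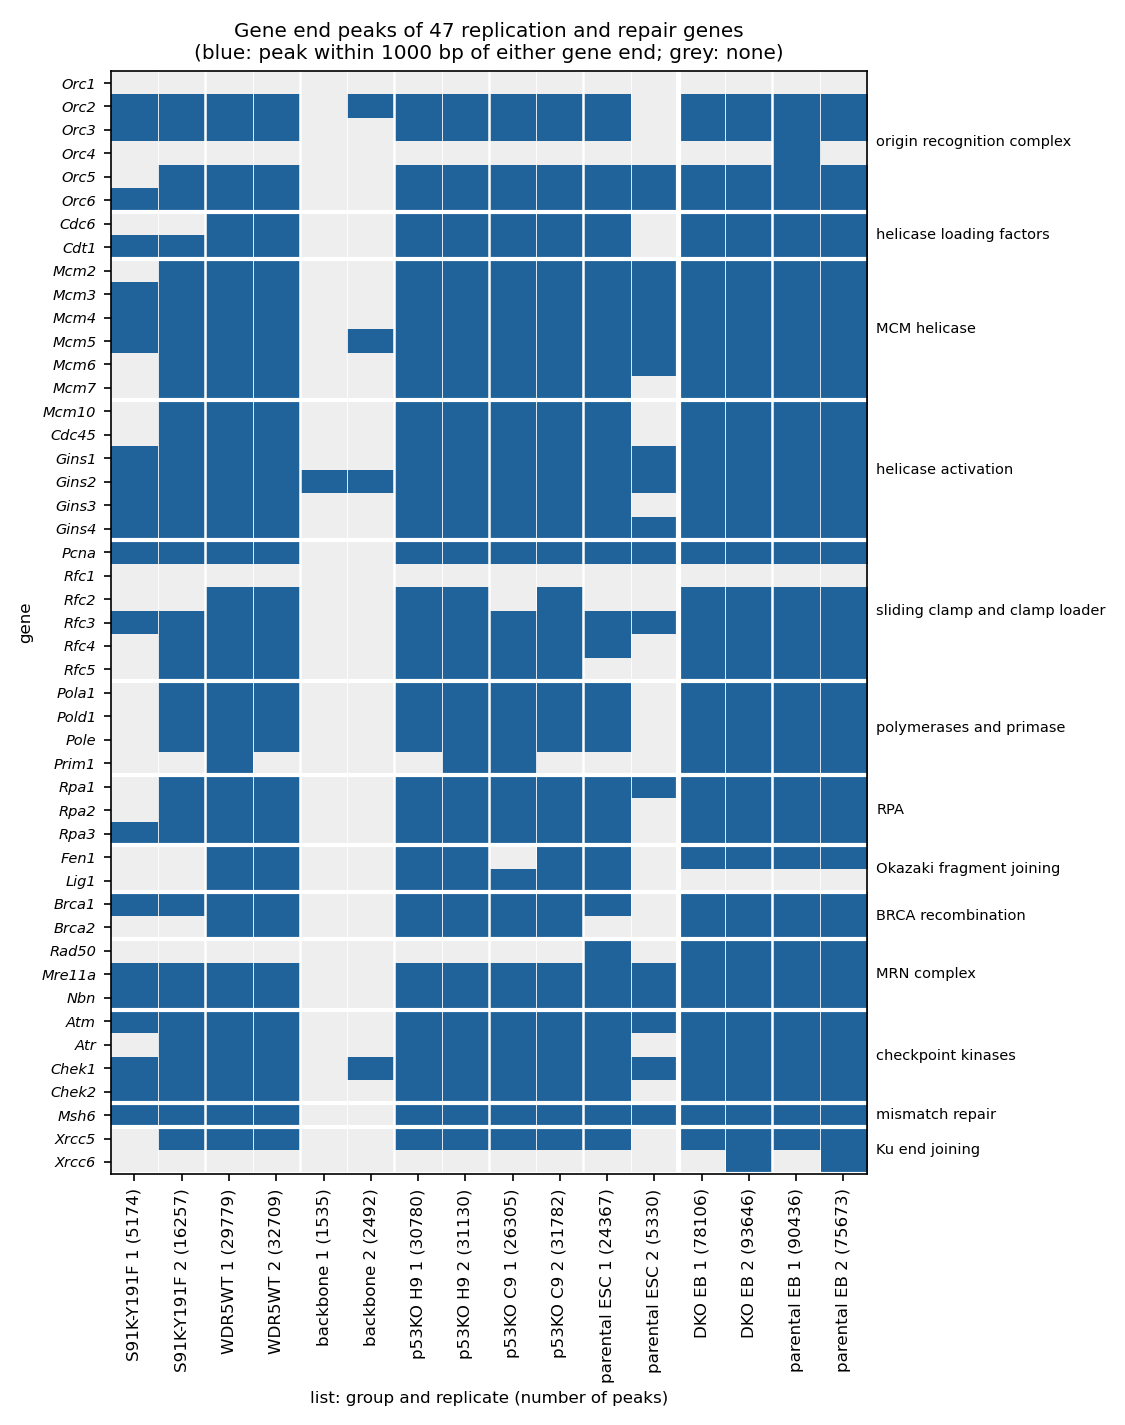
End peaks of the 47 genes (down the page, grouped by role) in the 16 lists (across, with the number of peaks in each list). Blue cells mark a peak within 1000 bp of either gene end; the backbone columns hold 1 and 4 blue cells, and Gins2 is blue in all 16.

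The clamp and clamp loader genes divided by member. Pcna, the clamp, had an end peak in every list but both backbone lists, and Rfc3, a loader subunit, in the same 14 lists. Rfc4 and Rfc5 were missing from the first S91K-Y191F list and both backbone lists, Rfc4 also from the second parental ESC list and Rfc5 from both. Rfc2 was missing from both S91K-Y191F lists, both backbone lists, the first clone C9 list and both parental ESC lists. Rfc1, the large loader subunit, had no outer end peak in any list, and had a peak at its annotated start, 2620 to 2711 bp inside the model, in 12 lists.

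The 4 polymerase and primase genes (Pola1, Pold1, Pole and Prim1) had no end peak in the first S91K-Y191F list, in either backbone list or in the second parental ESC list, and 3 of them had one in the second S91K-Y191F list. Prim1, the catalytic primase subunit that makes the starting primers, differed between replicates of 3 groups. Its peaks in ESCs were weak where they existed, with a signal of 252 in the first WDR5WT library, 299 in the second clone H9 library and 218 in the first clone C9 library. All 4 genes had a peak in each embryoid body list. Of the 3 RPA genes, which coat single-stranded DNA, 1 and 3 had an end peak in S91K-Y191F ESCs, 3 and 3 in WDR5WT ESCs, 0 and 0 in backbone ESCs, 3 in each p53 knockout list, and 3 and 1 in parental ESCs.

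Fen1, the nuclease that trims the flap between Okazaki fragments, had no end peak in either S91K-Y191F library and a signal of 323 and 516 in WDR5WT ESCs. The gene is on chromosome 19 from 10199132 to 10204393. It had no peak in the backbone libraries, 347 and 328 in clone H9, 369 in the second clone C9 library alone, and 403 in the first parental ESC library alone. Lig1, the ligase that seals the fragments, reads differently by end and by start. Its end peak appeared in 7 ESC lists and in no embryoid body list, yet a peak at one of its 3 annotated starts was present in 15 of 16 lists, including all 4 embryoid body lists. The gap of those start peaks to the outer end ran from 762 to 1249 bp, on both sides of the 1000 bp window. In embryoid bodies the Lig1 start peaks lay beyond the window, while the start itself had a peak in each of the 4 lists.

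Among repair genes, Msh6 of mismatch repair had an end peak in 14 lists, all but the backbone lists. Mre11a and Nbn, of the complex that senses double-strand breaks, had one in the same 14. Rad50, their partner, had one in a single ESC list, the first parental one, with a signal of 268, and in all 4 embryoid body lists, with a fold enrichment of 3.61 and 5.58 in double knockout and 4.99 and 5.11 in parental libraries. Chek1, the kinase that acts downstream of Atr at stalled forks, was found in the second backbone list (signal 294, chromosome 9 from 36726497 to 36726951, over the promoter printed above) and in all other lists but the first backbone list. Atm had a peak in 14 lists, all but the backbone lists. Chek2 was missing from both backbone lists and the second parental ESC list, and Atr from these and the first S91K-Y191F list. Xrcc6, the Ku70 gene, had outer end peaks in 2 embryoid body lists only, but a peak at its annotated start, 23197 to 23434 bp inside the model, in 13 lists. Its partner Xrcc5 was missing from the first S91K-Y191F list, both backbone lists and the second parental ESC list.

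The members' end peaks sat mostly at gene starts, as did those of all genes. In the first WDR5WT list, 35 of 39 members had a peak at the 5′ end alone and 0 at the 3′ end alone. Of the 17492 genes with a known strand, 7841 had one at the 5′ end alone and 284 at the 3′ end alone. For the 39 genes with a known strand no ESC list held a peak at the 3′ end alone, and 3′ ends had a peak in at most 2.56% of members in ESC lists and 10.3% in embryoid body lists. Over all genes, 3′ ends had a peak in up to 6.39% in ESC lists and 14.2% in embryoid body lists. In the 300 ESC peaks with a summit near an annotated start, from 35 members, the summit lay at a median of 35 bp before the start (quartiles -93.25 and 16 bp), and 275 of them (91.7%) were within 250 bp. The median summits of Brca1, Cdc6 and Cdc45 were outside that range, at -773, -381 and 268.5 bp. These peaks were taken for lying within 1000 bp of a gene end, so summits near a start follow in part from that choice. Summits over all genes were not measured. Brca1 begins 152 bp from the end of Nbr1, so its peak cannot be told apart from one of that gene.

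**Figure D3:**
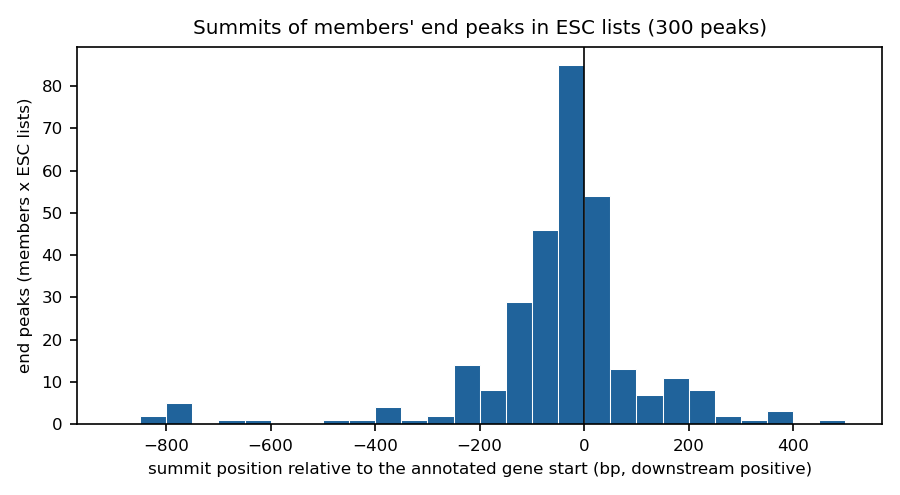
Number of members' end peaks in ESC lists (vertical axis) by the position of their summit relative to the annotated start (horizontal axis, bp, downstream positive, bins of 50 bp). The 300 summits have a median of -35 bp, and the small group to the far left holds the Brca1 peaks.

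Within a list, the members' peaks ranked above the middle of gene end peaks in the long lists. The percentile is the rank of a gene's strongest end peak among all peaks of its own list, by signal in ESCs and by fold enrichment in embryoid bodies. The members' median percentile was 53.3 and 72.8 in S91K-Y191F ESCs, 79.2 and 82.5 in WDR5WT ESCs, 85.9 and 79.1 in clone H9, 79.1 and 80.1 in clone C9, and 74.8 and 44.1 in parental ESCs. Over all genes with an end peak it was 51.7 and 64.4, 72.9 and 75.4, 73.6 and 74.1, 70.8 and 73.1, and 64.6 and 50.8 in the same lists. In the second parental ESC list and the second backbone list (37.1 against 41.4) the members ranked below all genes. In double knockout embryoid bodies the members' medians were 89.5 and 92.1 and in parental embryoid bodies 92.2 and 93.2, against 75.7 and 77.5, and 80.6 and 80.1, over all genes. Because the lists differ in length, a difference in rank between lists cannot be read as a change between groups.

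**Figure D4:**
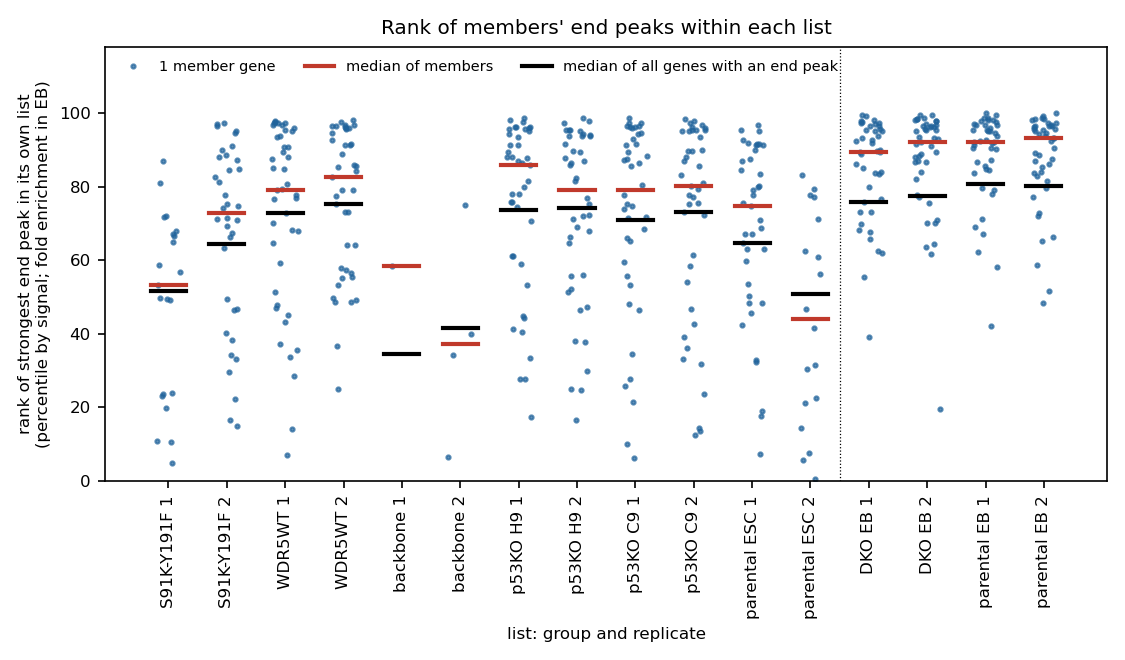
Rank of the strongest end peak of each member (points) within its own list, as a percentile (vertical axis, by signal in ESCs and fold enrichment in embryoid bodies), for the 16 lists. Red lines are medians over members and black lines medians over all genes with an end peak; in embryoid bodies the members' medians lie between 89.5 and 93.2.

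Which members ranked high was alike between replicates of a group. Across the members with a peak in both libraries, Spearman's rho of their percentiles was 0.764 for S91K-Y191F ESCs (21 genes), 0.965 for WDR5WT ESCs (41), 0.96 for clone H9 (41), 0.959 for clone C9 (39), and 0.598 for parental ESCs (18). In embryoid bodies it was 0.78 for double knockout and 0.825 for parental libraries, over 42 genes each. These genes share libraries and list lengths, so the values describe the lists and carry no test. Rpa3, Lig1 and Mcm5 were near the top in WDR5WT and p53 knockout ESCs, with every percentile for Mcm5 in those 6 lists between 96.7 and 98.8. In embryoid bodies Mcm5 stood at 76.6 and 84.1 in double knockout and 79.2 and 85.4 in parental libraries. Mcm3 had 80.9 to 86.4 in those ESC lists, 99.6 and 97 in double knockout embryoid bodies and 99.9 and 99.9 in parental embryoid bodies. Mcm10 had 45.1 to 59 in those ESC lists and 95.4 to 99.4 in embryoid bodies. ESC and embryoid body lists were ranked by different deposited values, so these ranks are given side by side and not compared.

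Comparisons between groups ask which genes had end peaks in all libraries of a group while no library of the group set against it had any. This call has no test: with 2 libraries against 2 an exact permutation test cannot go below p = 0.333, and with 4 against 2 not below p = 0.0667. Comparisons that use the backbone lists share them, as do those that use the WDR5WT, p53 knockout or parental lists.

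Between S91K-Y191F and WDR5WT ESCs, 5 of 47 members (10.6%) had an end peak in both WDR5WT libraries and in neither S91K-Y191F library, against 15.9% of all genes. They were Cdc6, Rfc2, Fen1, Lig1 and Brca2. No member was found in S91K-Y191F ESCs only, against 0.366% of all genes. Their end peaks in WDR5WT ESCs had signals of 472 and 571 for Cdc6, 370 and 519 for Rfc2, 770 and 633 for Brca2, and 2810 and 3105 for Lig1. The Lig1 starts had peaks in both S91K-Y191F libraries, with signals of 656 and 1406. With annotated starts counted too, the number of members found in WDR5WT ESCs only was 4 (8.51%), against 16.8% of all genes. Of the 41 members with a peak in both WDR5WT libraries, 12.2% were absent from both S91K-Y191F libraries, against 32.9% of such genes. Without the second S91K-Y191F library the count was 20 (42.6%), above the 35.6% of all genes, while with both libraries the members' share lay below that of all genes. At equal list length 2 members (4.26%, against 1.56% of all genes) were found in S91K-Y191F ESCs only. In WDR5WT ESCs only there was then 1 (2.13%, against 4.23% of all genes). The share of all genes stayed higher for WDR5WT ESCs, and counts this small give no direction for the members. Of 45 further replication genes 10 (22.2%) were found in WDR5WT ESCs only, among them Clspn, Chtf8, Dna2, Donson and Mcmbp, and of 69 further repair genes 2 (2.9%), Lig3 among them.

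Against backbone ESCs, S91K-Y191F ESCs had 17 members (36.2%) with an end peak in both libraries and in no backbone library, against 8.32% of all genes, and none was found in backbone ESCs only (0% of all genes). The 17 included 3 of the 6 helicase activation genes (Gins1, Gins3 and Gins4) and 2 of the 6 MCM genes (Mcm3 and Mcm4). Origin recognition and clamp genes also gave 2 of 6 each, checkpoint kinases 2 of 4, and the group of Mre11a and Nbn 2 of 3. RPA gave 1 of 3, loading factors and BRCA genes 1 of 2 each, and Msh6 was among the 17. Polymerase and primase genes gave 0 of 4, and Okazaki fragment and Ku genes 0 of 2 each. Groups this small give no pattern by role. Of the 21 members with a peak in both S91K-Y191F libraries, 81% were absent from both backbone libraries, against 64.4% of such genes. Without the first S91K-Y191F library the count was 32 (68.1%), against 28.9% of all genes. Further replication genes gave 10 of 45 and further repair genes 14 of 69, with none found in backbone ESCs only.

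WDR5WT ESCs had 37 members (78.7%) with an end peak in both libraries and in no backbone library, against 43.7% of all genes, and no member was found in backbone ESCs only, against 0.219% of all genes. The 37 held 5 of 6 MCM genes, 5 of 6 helicase activation genes, 5 of 6 clamp and clamp loader genes, 3 of 4 polymerase and primase genes and 3 of 3 RPA genes. Origin recognition genes gave 3 of 6 and Ku genes 1 of 2, the lowest shares of any role. Groups this small give no pattern by role. The members with an end peak in both WDR5WT libraries but not among the 37 were Orc2, Mcm5, Gins2 and Chek1. The same 4 had an end peak in the second backbone list. Lig1, among the 37, had a start peak in that list (signal 349), 1200 bp from its outer end and so beyond the window. With annotated starts counted too, 39 members (83%) were found in WDR5WT ESCs only, against 46.7% of all genes. Taken over the 41 members with a peak in both WDR5WT libraries, 90.2% were absent from both backbone libraries, against 90.4% of the 10569 such genes, so the members' share lay near that of all genes. Of further replication genes 36 of 45 (80%) were found in WDR5WT ESCs only, and of further repair genes 44 of 69 (63.8%).

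Backbone ESCs lacked 35 members (74.5%) that had an end peak in all 4 p53 knockout libraries, against 34.1% of all genes, and no member was found in backbone ESCs only, against 0.228% of all genes. The 35 again include Lig1, which had a start peak in the second backbone list. With annotated starts counted too, the count was 37 (78.7%), against 36.7% of all genes. Of the 39 members with a peak in all 4 p53 knockout libraries 89.7% were absent from both backbone libraries, against 88.2% of the 8453 such genes. Against parental ESCs, backbone ESCs lacked 15 members (31.9%) that both parental libraries had, against 7.92% of all genes. No member was found in backbone ESCs only, against 0.0183% of all genes. The 15 held 4 of 6 MCM genes, 2 of 6 each for origin recognition, helicase activation and clamp, and 2 of 3 with Mre11a and Nbn. They also held 1 of 3 RPA genes, 1 of 4 checkpoint kinases and Msh6. None was a polymerase or primase (0 of 4), loading factor, Okazaki fragment, BRCA or Ku gene (0 of 2 each). Groups this small give no pattern by role. Of the 18 members present in both parental libraries 83.3% were absent from both backbone libraries, against 64.5% of such genes. Without the second parental library 35 members (74.5%) were found in parental ESCs only, against 35.9% of all genes. Further replication genes lacking from backbone ESCs were 30 of 45 against p53 knockout ESCs and 10 of 45 against parental ESCs, and further repair genes 43 and 11 of 69.

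List length moves with all these counts. When each list was cut to its strongest peaks by signal, down to the number in the shortest list of the comparison, 1 member (2.13%, against 1.17% of all genes) was found in S91K-Y191F ESCs only and 7 (14.9%, against 3.52%) in WDR5WT ESCs only, each against backbone ESCs. Backbone ESCs then lacked 3 members (6.38%, against 2.67% of all genes) that p53 knockout ESCs had and 1 (2.13%, against 0.854%) that parental ESCs had. Between S91K-Y191F and WDR5WT ESCs there were 2 members (4.26%, against 1.56% of all genes) found in S91K-Y191F ESCs only and 1 (2.13%, against 4.23%) in WDR5WT ESCs only. With every list at 1535 peaks, 4 and 6 members had an end peak in S91K-Y191F ESCs, 10 and 10 in WDR5WT ESCs, 1 and 2 in backbone ESCs, 10 and 7 in clone H9, 10 and 9 in clone C9, and 3 and 4 in parental ESCs. In S91K-Y191F ESCs that was 8.51% and 12.8% of members, against 3.92% and 5.04% of all genes. The shares were 21.3% and 21.3% against 6.24% and 6.58% in WDR5WT ESCs, and 2.13% and 4.26% against 1.25% and 2.66% in backbone ESCs. Clone H9 had 21.3% and 14.9% against 6.17% and 6.25%, and clone C9 21.3% and 19.1% against 5.75% and 5.67%. Parental ESCs had 6.38% and 8.51% against 4.2% and 3.36%.

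**Figure D5:**
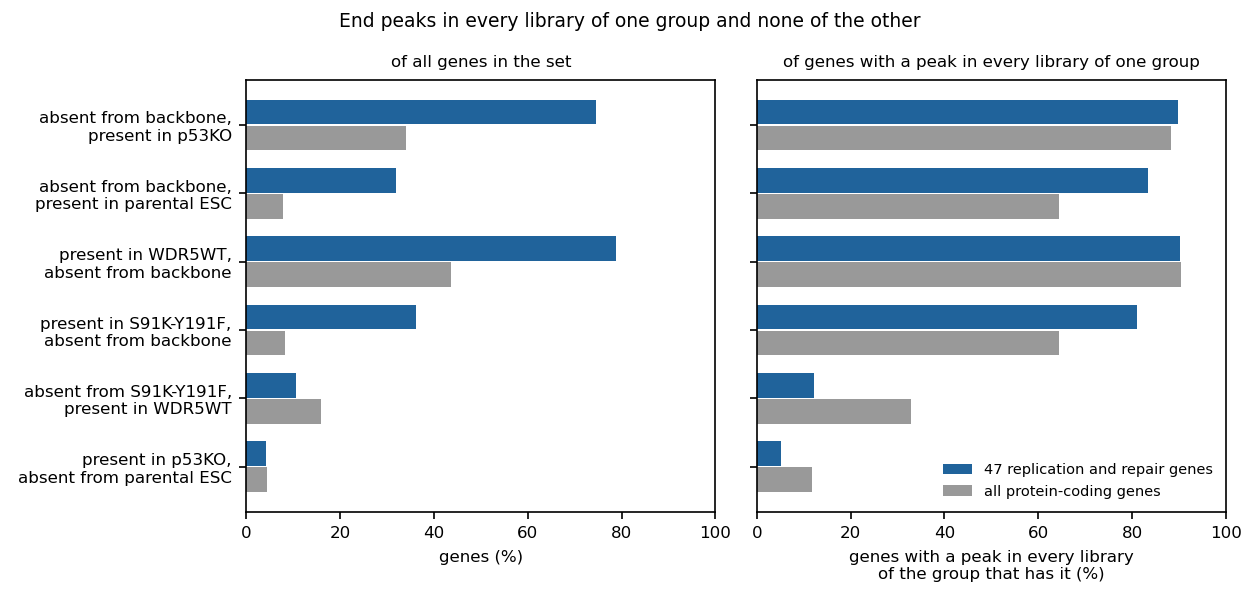
Share of genes whose end had a peak in all libraries of a group and in none of its counterpart (horizontal axes, percent), for the 47 replication and repair genes (blue) and all protein-coding genes (grey). The left panel is over all genes of each set and the right panel over the genes with a peak in every library of the group that has it, where members and all genes stand at 89.7% and 88.2% for backbone against p53 knockout ESCs.

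Between p53 knockout and parental ESCs, 2 members (4.26%) had an end peak in all 4 p53 knockout libraries and in neither parental library, against 4.5% of all genes, a share close to the background. They were Rfc5, a clamp loader subunit, and Brca2, a gene of recombination repair. Rfc5 (chromosome 5 from 117379145 to 117389023) had a signal of 312 and 452 in clone H9 and 230 and 332 in clone C9. Brca2 (chromosome 5 from 150522297 to 150570147) had 435 and 503 in clone H9 and 301 and 425 in clone C9, and its start carries the E2F-type word shown above. Both had peaks in both WDR5WT libraries as well, 223 and 396 for Rfc5 and 770 and 633 for Brca2. No member was found in parental ESCs only, against 0.356% of all genes. Without the first parental library, the longer of the pair, 21 members (44.7%) were found in p53 knockout ESCs only, against 26.8% of all genes. Of further replication genes 5 of 45 were found in p53 knockout ESCs only (Chtf8, Prim2, Recql4, Timeless and Topbp1), and of further repair genes 3 of 69 (Ercc3, Lig4 and Rad52).

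WDR5WT and p53 knockout ESCs shared 39 members with a peak in every library of both, and no member was found in WDR5WT ESCs only (1.15% of all genes) or in p53 knockout ESCs only (0.119%). Clones H9 and C9 likewise gave no member found in H9 only (2.3% of all genes) or in C9 only (0.242%). Without the second clone C9 library, 2 members (4.26%) were found in H9 only, against 4.74% of all genes. In embryoid bodies no member was found in double knockout only, against 0.694% of all genes, or in parental only, against 0.818%, and 42 of 47 members had an end peak in all 4 lists. Without the second parental library 1 member (2.13%) was found in parental embryoid bodies only, against 2.16% of all genes. A count of 0 is near what these shares of all genes give over 47 genes, so nothing about the members is read from it. Orc1, Rfc1 and Lig1 had no end peak in any embryoid body list, and Orc4 had one in the first parental list only. No further replication or repair gene was called in either direction between the embryoid body groups.

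A pair of short lists of similar length allowed a further look at which members were kept. The first S91K-Y191F list (5174 peaks) and the second parental ESC list (5330 peaks) held 21 and 18 members and shared 14, which is 66.7% of the S91K-Y191F members and 77.8% of the parental members. Over all genes the shared part was 68.6% and 72.7%. Orc2, Orc3, Cdt1, Gins3, Rpa3, Brca1 and Chek2 were found in the S91K-Y191F list only, and Orc5, Mcm2, Mcm6 and Rpa1 in the parental list only. Both short lists were nested in their longer replicate: all 21 S91K-Y191F members recurred among the 36 of the second S91K-Y191F list, and all 18 parental members among the 39 of the first parental list. Of all genes 98.6% and 99.4% recurred in the same way.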

How the data were processed

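ATAC-seq was measured in 16 libraries. Per the submitters' processing notes, the tools were SAMtools, DESeq2, Bowtie2 2.3.5, MACS2 2.1.2 and Genrich 0.6, on build mm10; the role of each tool, and the caller of each list, are not given in the sources used here. Each of the 12 deposited ESC lists gives per peak a score, a signal of unstated scaling (never under 200), a −log10 p-value and a summit. Each of the 4 deposited embryoid body lists gives a score, a ratio (fold enrichment) and −log10 p and q-values (−log10 q at least 1), and blacklisted regions were removed by the authors, per the file names. Depth is unknown, so no counting interval is given.

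Chromosomes 1 to 19, X and Y were used, with RefSeq gene models of GRCm38.p6. A gene had an end peak when a peak lay within 1000 bp of either outer end. A gene was called when all libraries of a group had an end peak and those of its counterpart had none, in 9 comparisons and each direction, without a test. Signals and ratios served to rank peaks within a list. Groups came from the sample titles. Alternatives were windows of 500 and 2500 bp, annotated starts, the upper 50% of peaks by p-value, equal list length, autosomes without chromosome 8, and leaving out each library. The code of the call was checked on simulated peaks at genes whose ends lie far from those of other genes, so shared ends were not covered. Python 3.11.15, numpy 2.4.6, pandas 2.3.3 and matplotlib 3.10.9 were used.

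The members, the further gene lists and the tests were chosen with earlier results of these data known. Values are given in full for members called where at most 10 were called, for those with an end peak in every ESC list, and for up to 6 with an end peak in the fewest lists; elsewhere counts by role. Up to 5 further genes, by symbol, are named per comparison. Peak ranks of Mcm3, Mcm5, Mcm10, Rpa3 and Lig1 were named after their values were seen.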

Additional observations from a re-analysis of the deposited data

Results flagged for a closer look

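Across the 4 p53 knockout lists, 39 of the 39 members with a known start had a start peak in the second clone H9 list, against 38 in each of the other lists, and a difference of 1 gene counts as a sample far from the others because the others were equal. The members' median percentile of 85.9 in the first clone H9 list also stood apart from the other p53 knockout lists, which had 79.1, 79.1 and 80.1. For untied values chance sets a sample apart in this way in about 1 in 20 groups; the rate for a tied count such as the first was not tested.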

How the results depend on the processing

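Equal list length, which keeps the peaks highest in signal, moved 8 values, and the shares of all genes called moved with them. With peaks in all libraries of a group and in no backbone library there were then 1 member for S91K-Y191F ESCs (17 at full length; 1.17% of all genes), 7 for WDR5WT ESCs (37; 3.52%), 3 for p53 knockout ESCs (35; 2.67%) and 1 for parental ESCs (15; 0.854%). Between S91K-Y191F and WDR5WT ESCs it gave 2 found in S91K-Y191F ESCs only (0 at full length; 1.56% of all genes) and 1 in WDR5WT ESCs only (5; 4.23%), and 1 found in clone H9 only against clone C9 (0; 2.01%). The median number of members with an end peak per list was 5, against 41 at full length. With the upper 50% of peaks by p-value, 8 members were found in parental ESCs only against backbone ESCs (4.52% of all genes) and 1 in clone H9 only against clone C9 (2.46%). With annotated starts only, 3 of 39 were found in WDR5WT ESCs only against S91K-Y191F ESCs (15.9%). Windows of 500 and 2500 bp, autosomes without chromosome 8, and gene ends or annotated starts together (chosen after seeing the data) moved no count by over 1.5 times. The cause was not tested.

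Leaving out each library in turn gave, against backbone ESCs, 17 to 32 found in S91K-Y191F ESCs only (8.37% to 28.9% of all genes), 37 to 40 in WDR5WT ESCs only (43.7% to 50.3%), 35 to 38 in p53 knockout ESCs only (34.1% to 37.7%) and 15 to 35 in parental ESCs only (7.95% to 35.9%). It gave 5 to 20 in WDR5WT ESCs only against S91K-Y191F ESCs (16% to 35.6%). Between p53 knockout and parental ESCs it gave 2 to 21 in p53 knockout ESCs only (4.51% to 26.8%) and 0 to 1 in parental ESCs only (0.361% to 1.59%). It gave 0 to 2 in clone H9 only (3.86% to 4.74%) and 0 to 1 in parental embryoid bodies only (1.26% to 2.18%). Each other direction stayed at 0. With 1 library in a group, the call has no replicate check. No paired analysis was possible because the results come from no test, and no label ties the replicate numbers to a shared batch or day. Without read counts, an absent peak cannot be told apart from one under a list's threshold, and this limits each result that uses the short lists.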

Other observations

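Peaks inside the members' gene bodies, over 1000 bp from both outer ends, were counted for the members only. No count over all genes or per length of gene was made. Embryoid body lists hold more peaks than any ESC list, and the part of list length in these counts was not tested. The 47 genes together held 4 and 7 in S91K-Y191F ESCs, 10 and 10 in WDR5WT ESCs, 1 and 2 in backbone ESCs, 12 and 11 in clone H9, 7 and 9 in clone C9, and 7 and 2 in parental ESCs. In embryoid bodies they held 23 and 19 in double knockout libraries and 29 and 22 in parental libraries, where 16 and 14, and 19 and 16 of the members had at least 1. The embryoid body groups overlapped, with 23 in the higher double knockout library and 22 in the lower parental library. In Orc1 and other genes whose start lies inside the model, such internal peaks include the start peak.

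End peaks were also counted at further genes of replication and repair. Of 45 further replication genes, 14 and 30 had an end peak in S91K-Y191F ESCs, 40 and 42 in WDR5WT ESCs, 2 and 3 in backbone ESCs, 38 and 40 in clone H9, 37 and 38 in clone C9, 36 and 14 in parental ESCs, 43 and 43 in double knockout embryoid bodies, and 44 and 44 in parental embryoid bodies. Of 69 further repair genes, 25 and 53 had one in S91K-Y191F ESCs, 56 and 63 in WDR5WT ESCs, 1 and 11 in backbone ESCs, 59 and 61 in clone H9, 55 and 57 in clone C9, 53 and 21 in parental ESCs, 65 and 66 in double knockout embryoid bodies, and 66 and 66 in parental embryoid bodies. The difference between these lists was not tested.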
